A study of Mus musculus with 39 samples.

Results

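The RNAs described here code for the subunits and assembly factors of respiratory complexes III and IV and of ATP synthase. They are the genes found in both expression tables whose symbols begin with Uqcr, Cox4 to Cox8, Cox10 to Cox29 or Atp5, together with Cyc1, Cycs, Uqcc1, Uqcc2, Surf1, Sco1, Sco2 and Atpif1. In all, 57 of 13230 genes met this rule. They comprise 9 subunits of complex III, 3 genes for cytochrome c and complex III assembly factors, 15 subunits of complex IV, 12 assembly factors of complex IV, 15 subunits of ATP synthase and 3 genes related to ATP synthase.

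The source was liver of wild-type FVB mice, all female and of an age that is not given, and the RNAs were measured along 2 sucrose gradients. The tissue was broken with beads and without detergent, so that membranes and organelles went into the gradient, and nuclei were first removed by a spin. Gradient 1 has 17 stranded, rRNA-depleted libraries (fractions 4 to 19 and 21) and gradient 2 has 22 (fractions 3 to 24), with the lightest fractions numbered lowest and 1 library per fraction. Values are in TPM, a count corrected for transcript length and scaled to the same total in each library, so each is the share of an RNA within its own fraction and not its amount there, and the read depth behind it is unknown.

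Complex III passes electrons from ubiquinol to cytochrome c, complex IV passes them on to oxygen, and both pump protons across the inner mitochondrial membrane. ATP synthase lets the protons flow back and uses them to make ATP, which liver spends on urea and glucose synthesis. The subunits in this set are coded in the nucleus and imported into mitochondria, while a few core subunits are coded by mitochondrial DNA and do not carry these symbols.

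The labelled tissue was first checked against marker genes. All 6 hepatocyte markers were abundant: mean TPM in gradients 1 and 2 was 10503 and 8497 for Alb, 3426 and 3353 for Serpina1c, 2064 and 3558 for Cps1, 1593 and 2383 for Ttr, 1409.9 and 2147 for Cyp2e1 and 1254 and 2109 for Apoa1. All 5 Kupffer cell markers, all 5 sinusoidal endothelial markers and 3 of 4 stellate markers were in both tables at lower levels. The highest Kupffer cell marker was Cd5l at 29.0 and 29.0 TPM, the highest sinusoidal endothelial marker was Clec4g at 33.2 and 19.3 TPM and the highest stellate marker was Dcn at 12.8 and 18.5 TPM. The erythroid RNA Hba-a1 had 253 and 187 TPM. None of the striated muscle and brown fat markers Ckm, Acta1, Myh7 and Ucp1 was in both tables. These levels are means of TPM over the 17 shared fractions, with each fraction counted equally, and not levels in the whole tissue. For them, as in bulk samples generally, fewer cells of a type and less RNA per cell cannot be told apart. The zones of a gradient, by contrast, divide 1 homogenate. The 6 hepatocyte markers together made up 4.41% ± 0.96 of the library in fractions 4 to 7 (light zone), 1.11% ± 0.34 in fractions 10 to 13 (middle zone) and 1.45% ± 0.68 in the dense zone (mean ± SD, n = 2 gradients). Alb and Serpina1c carry much of this sum, and not all of the 6 lay light: the center of sedimentation (the mean fraction number weighted by TPM) was 7.27 and 9.25 for Alb but 14.3 and 14.6 for Cps1 and 11.5 and 13.5 for Ttr. All other marker lists with RNAs in both tables were also highest in the light zone, except the neutrophil markers (0.000171% in light, 0.00106% in middle and 0.000365% in dense). From light to middle to dense, the ER and secretory reference list (Alb, Apob, Fn1, Hspa5 and Pdia3) went from 2.71% to 0.401% and 0.422% of the library. The nuclear RNAs Malat1 and Neat1 together went from 0.0440% to 0.00406% and 0.00233%, and the Kupffer cell markers from 0.0141% to 0.00467% and 0.00453%. The sinusoidal endothelial markers went from 0.00515% to 0.00366% and 0.00243%, the stellate markers from 0.00446% to 0.00174% and 0.00120%, and the erythroid markers from 0.0348% to 0.0256% and 0.00832%. Every comparison with the light zone shares this shift. Fits without the 50 most abundant genes and with quantile normalization are given below, and its part in the results was not otherwise tested.

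Together the 57 RNAs made up a share of each library that changed along the gradient. The share was 0.775% in fraction 4 of gradient 1 and 1.01% in the same fraction of gradient 2, rose to 5.09% and 5.33% in fraction 11, and was 2.62% and 2.36% in fraction 21. Fraction 11 held the maximum in both gradients. Summed TPM, which the most abundant RNAs carry, peaked in different fractions for the different groups. The complex IV assembly factors peaked in fraction 9 (0.156% and 0.151% of the library in gradients 1 and 2), the complex III subunits in fraction 10 (1.20% in each), the complex IV subunits in fraction 11 (1.72% and 1.83%) and the ATP synthase subunits in fraction 12 (2.20% and 2.25%). With each RNA taken relative to its own mean, the median profiles of complexes III and IV peaked in the same fractions, fraction 10 of gradient 1 and fraction 11 of gradient 2. That of the complex IV assembly factors peaked in fraction 10 of both gradients, and that of the ATP synthase subunits in fractions 12 and 13. Between fractions 4 to 7 and 16 to 19 the ATP synthase subunits went from 0.563% ± 0.033 to 1.70% ± 0.038 of the library (mean ± SD, n = 2 gradients). Over the same span the complex III subunits went from 0.294% ± 0.014 to 0.538% ± 0.012 and the complex IV subunits from 0.489% ± 0.023 to 0.596% ± 0.054. These sums were not tested.

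For tests, log2(TPM + 1) was averaged in each gradient over a light zone (fractions 4 to 7), a middle zone (fractions 10 to 13) and a dense zone (fractions 16 to 19). The zone means were compared with limma over the 11754 genes with a mean of at least 1 TPM, at an adjusted p under 0.05 and with n = 2 gradients per zone. The 3 comparisons share zones, so they are not independent of each other. An exact permutation test of 2 against 2 gradients cannot give a p under 0.333, so none was made. Of the 57 RNAs, 54 passed the filter, and the complex IV isoforms Cox4i2, Cox6b2 and Cox8b were not tested.

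From the light to the middle zone, 43 of the 54 tested RNAs were higher, against 23.5% of all tested genes, and 1 was lower, Cox7a2l, against 24.1%. The median log2 change of the 54 was 1.76, and that of all tested genes was 0.05. From the middle to the dense zone the direction turned: 33 were lower, against 22.5% of all tested genes, and 4 (Uqcrc1, Uqcrc2, Atp5a1 and Atp5b) were higher, against 4.79%. The median log2 change was -1.07 for the 54 and -0.28 for all genes. Comparing dense with light directly, 31 were higher, against 22.3% of all tested genes, and 10 were lower, against 39.6%, with medians of 0.75 and -0.43. A rise into the middle zone followed by a fall was called for 29 of the 54, against 6.36% of all tested genes. Higher levels than light in both the middle and the dense zone were called for 30, against 16.7%.

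The calls between dense and middle need the middle zone means of both gradients. Without the middle zone mean of gradient 1, limma called 0 of 11754 genes between dense and middle, with 3374 at an unadjusted p under 0.05, and 37 of the 54 RNAs among these. Without that of gradient 2 it also called 0, with 3510 genes and 36 of the 54 RNAs at an unadjusted p under 0.05. The sign of the change was the same as with both gradients for all 54 in either case. It was not so in every other case: without the dense zone mean of gradient 2 the sign held for 51 of the 54 between dense and middle and for 50 between dense and light, and without the light zone mean of gradient 1 for 50 between dense and light. Between middle and light it held for at least 52 of the 54 whichever mean was left out. Without the dense zone mean of gradient 1 the sign held for all 54 between dense and middle and for 53 between dense and light. Without the light zone mean of gradient 1, 20 of the 54 were called higher and 5 lower in dense than in light, against 15.6% and 27.8% of all genes. Without that of gradient 2, 26 were higher and 6 lower, against 14.9% and 30.8%. With the gradient as a replicate block, so that zones were paired, 45 were higher and 2 lower in middle than in light, against 37.2% and 35.0% of all genes. In that paired fit 7 were higher and 37 lower in dense than in middle, against 14.1% and 39.3%, and 33 were higher and 11 lower in dense than in light, against 30.5% and 50.0%. The paired fit added calls and removed none. Among the RNAs named here it added the changes from light to middle of Atp5sl (adjusted p 0.0115), Cox10 (0.0168) and Sco2 (0.00594), and those from middle to dense of Atp5g2 (0.012), Cox15 (0.0109), Sco1 (0.0263), Sco2 (0.0166) and Surf1 (0.0322).

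Scaling moved the level of all genes in 2 of the comparisons. Under quantile normalization the median log2 change of all tested genes went from -0.28 to 0.03 for dense against middle and from -0.43 to -0.05 for dense against light. Relative to the all-gene medians of the unscaled data, the median RNA of this set was -0.79 for dense against middle and 1.17 for dense against light. Relative to those of the quantile-normalized data it was -1.02 and 0.68. With quantile normalization 44 of the 54 were higher and 2 lower in middle than in light, against 26.9% and 24.2% of all genes. From middle to dense 5 were higher, a share near the 10.3% of all genes, and 29 were lower, against 13.7%. From light to dense 28 were higher and 11 lower, against 30.7% and 29.9%. Without the 50 most abundant genes, 53 of the RNAs were left to test. Of these, 41 were higher and 1 lower in middle than in light (22.1% and 26.0% of all genes), and 4 higher and 32 lower in dense than in middle (6.94% and 20.6%). In dense against light 30 were higher and 9 lower (23.1% and 39.6%). The median log2 changes of the 53 were 1.66, -1.01 and 0.72 in these comparisons.

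The counts were also taken for each group. All 9 complex III subunits were higher in middle than in light (median log2 change 2.41), 6 were then lower and 2 higher in dense than in middle (-1.51). Of the 12 tested complex IV subunits 11 rose (2.07), and 11 were lower in dense than in middle (-1.35). Of the 15 ATP synthase subunits 14 rose (2.04), with 6 then lower and 2 higher (-0.49). Of the 12 complex IV assembly factors 6 rose (0.70), and 6 were lower in dense than in middle (-0.89). In the paired fit 3 of the 12 were higher and 8 lower in dense than in middle, so that 11 of 12 changed there, as for 8 of 9 complex III, 11 of 12 complex IV and 10 of 15 ATP synthase subunits. All of these group counts stand against 23.5% of all genes higher in middle than in light and 4.79% higher and 22.5% lower in dense than in middle, or 14.1% and 39.3% in the paired fit. Under quantile normalization 2 of the 12 assembly factors were higher and 3 lower in dense than in middle, against 10.3% and 13.7% of all genes. Differences between the groups were not tested.

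Position was also summarized by the center of sedimentation, the mean fraction number of an RNA weighted by its TPM over the 17 shared fractions. The median center was 12.9 in gradient 1 and 12.9 in gradient 2 for ATP synthase subunits, 12.4 in gradient 1 and 12.5 in gradient 2 for complex III subunits, 11.9 in gradient 1 and 11.6 in gradient 2 for complex IV subunits and 11.5 in gradient 1 and 11.4 in gradient 2 for complex IV assembly factors. For all tested genes it was 11.3 in gradient 1 and 11.3 in gradient 2. The center of a single RNA repeated closely between gradients, with a median SD of 0.139 fractions among the 54 RNAs, against 0.255 among all tested genes. No test was made on centers.

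**Figure D1:**
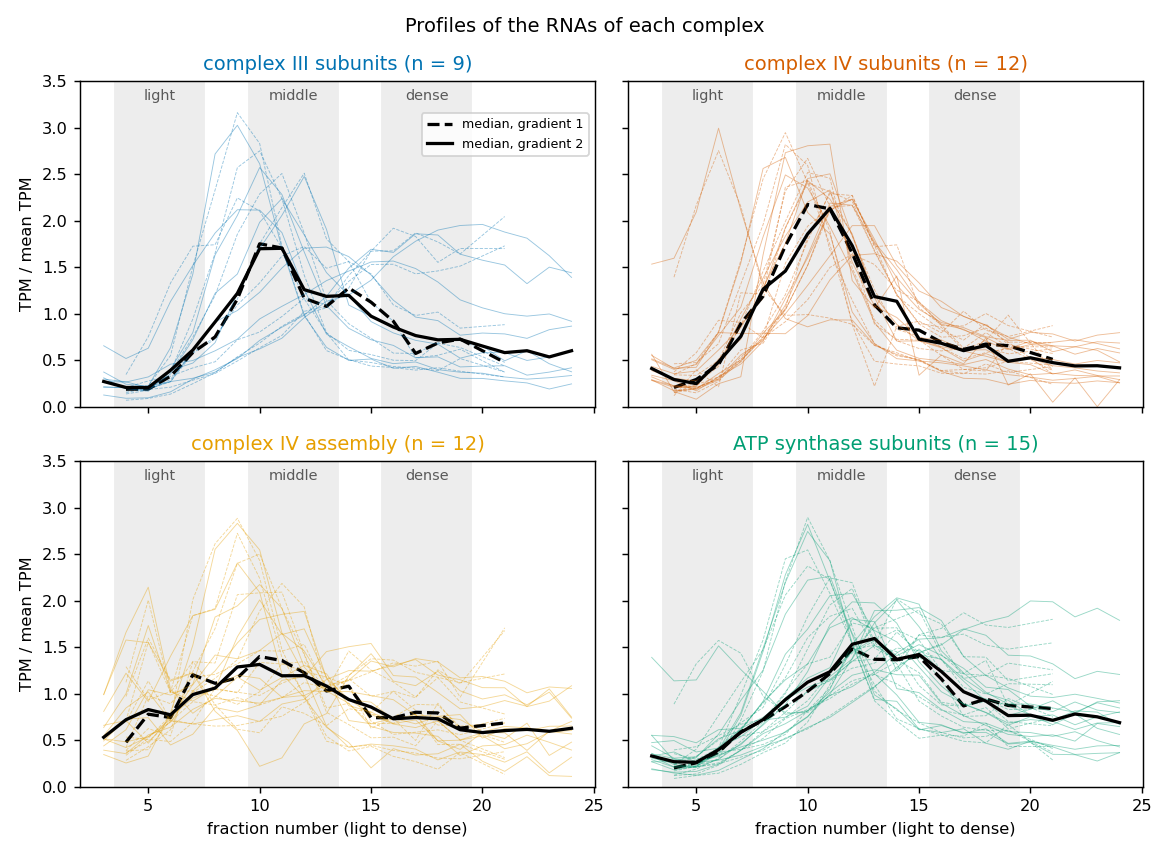
TPM of each RNA divided by its mean over the 17 shared fractions (vertical axis) against fraction number (horizontal axis), 1 thin line per RNA and black lines for the median, dashed for gradient 1 and solid for gradient 2. Complex IV subunits fell from fraction 11 toward the dense end, while ATP synthase subunits kept a higher median there.

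Complex III is a dimer in which cytochrome c1, the Rieske protein and a mitochondrially coded cytochrome b carry the electrons, flanked by large core proteins and small accessory subunits. Its RNAs spanned the gradient, with centers from 10.4 (Uqcrh) to 15.2 (Uqcrc1). The RNAs of the core proteins lay at the dense end. Uqcrc1 had 88.2 TPM in the light, 588 in the middle and 1132 in the dense zone of gradient 1, and 89.5, 519 and 973 TPM in gradient 2. It rose at each step in both gradients, and its center was 15.3 in gradient 1 and 15.1 in gradient 2. The log2 change was 2.77 (SE 0.16, adjusted p 0.0011) from light to middle, 0.94 (SE 0.16, adjusted p 0.0122) from middle to dense and 3.72 (SE 0.16, adjusted p 3.01e-04) from light to dense. Uqcrc2, the other core protein, had light zone means of 80.8 and 90.6 TPM (gradients 1 and 2), middle zone means of 326 and 319 and dense zone means of 651 and 670.1. These zones did not overlap either, and the log2 change from light to dense was 2.95 (SE 0.15, adjusted p 3.01e-04), with 1.06 (SE 0.15, adjusted p 0.00787) from middle to dense.

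The RNAs of the electron carriers lay between the core and the small subunits. Uqcrfs1 codes for the Rieske iron-sulfur protein and had 192, 631 and 927 TPM from light to dense in gradient 1 and 195, 582 and 703 TPM in gradient 2. Dense and light differed by a log2 change of 2.09 (SE 0.19, adjusted p 5.33e-04), while dense against middle did not pass (0.42, SE 0.19, adjusted p 0.159). Cyc1, coding for cytochrome c1, had light zone means of 141 and 156 TPM (gradients 1 and 2), middle zone means of 729 and 735 and dense zone means of 466 and 455. Its highest zone was the middle one in both gradients, with log2 changes of 2.48 (SE 0.16, adjusted p 0.0011) into the middle zone and -0.67 (SE 0.16, adjusted p 0.0278) out of it.

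The small subunits lay lightest. Uqcrh, the acidic hinge protein that helps dock cytochrome c, had 849, 1178 and 358 TPM from light to dense in gradient 1 and 914, 1449.8 and 412 TPM in gradient 2. Its dense values were the lowest of the 3 zones, and its log2 change was 0.66 (SE 0.19, adjusted p 0.0349) from light to middle and -1.02 (SE 0.19, adjusted p 0.00571) from light to dense. Without the 50 most abundant genes the first of these no longer passed (log2 change 0.56, adjusted p 0.058). Uqcr11, another small accessory subunit, had light zone means of 582 and 516 TPM (gradients 1 and 2), middle zone means of 2517 and 2509.7 and dense zone means of 809.6 and 709. It peaked in fraction 10 of both gradients, at 3847 and 3395 TPM, and changed by 2.41 (SE 0.17, adjusted p 0.0011) from light to middle and -1.63 (SE 0.17, adjusted p 0.007) from middle to dense (log2).

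Cycs codes for somatic cytochrome c, the carrier between complexes III and IV, and had 48.3 TPM in the light, 164 in the middle and 87.0 in the dense zone of gradient 1, and 64.7, 194 and 93.8 TPM in gradient 2. The middle zone was highest in both gradients, with a log2 change of 1.75 (SE 0.19, adjusted p 0.00189) from the light zone and -0.95 (SE 0.19, adjusted p 0.0185) to the dense zone. The second change did not pass under quantile normalization (-0.71, adjusted p 0.0654). Uqcc2, an assembly factor needed for the synthesis of cytochrome b, had 135, 194 and 53.5 TPM from light to dense in gradient 1 and 105, 207 and 56.8 TPM in gradient 2. Its center, the lowest of its group and so a reason why it was named, was 10.1 in gradient 1 and 10.4 in gradient 2. The log2 change from light to dense was -0.82 (SE 0.19, adjusted p 0.0119). With zones of 2 fractions that change no longer passed (-0.60, adjusted p 0.0754).

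Complex IV has a catalytic core coded by mitochondrial DNA, surrounded by small subunits from the nucleus, some of which exist as isoforms of liver or of muscle and heart. Of the 12 tested subunits, 11 had their maximum in fractions 9 to 13 of both gradients, and Cox7a2l had it in fraction 6. Cox4i1, the largest nuclear subunit and a regulator of the enzyme, had 907 TPM in the light, 1890.1 in the middle and 1175 in the dense zone of gradient 1, and 890.4, 1999 and 1296 TPM in gradient 2. Cox5a, which binds the matrix side, had 208, 1325 and 513 TPM from light to dense in gradient 1 and 229, 1229 and 672 TPM in gradient 2. In both RNAs the middle zone was highest in each gradient. The log2 change from light to middle was 1.17 (SE 0.16, adjusted p 0.00339) for Cox4i1 and 2.64 (SE 0.19, adjusted p 0.00115) for Cox5a, and from middle to dense -0.64 (SE 0.16, adjusted p 0.036) and -1.12 (SE 0.19, adjusted p 0.012). The last value for Cox4i1 did not pass without the 50 most abundant genes (-0.54, adjusted p 0.0515).

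Cox6b1 bridges the monomers of complex IV on the side of cytochrome c, and its RNA had light zone means of 387 and 437 TPM (gradients 1 and 2), middle zone means of 2468 and 2654 and dense zone means of 942 and 1041. Cox6a1, the liver isoform of subunit VIa, had 361, 1508 and 495 TPM from light to dense in gradient 1 and 416, 1508 and 513 TPM in gradient 2. Both had middle zone means above all light and dense ones, with log2 changes from light to middle of 2.79 (SE 0.18, adjusted p 0.0011) and 2.09 (SE 0.17, adjusted p 0.0012). Between dense and light, Cox6b1 differed by 1.42 (SE 0.18, adjusted p 0.00133) and Cox6a1 by 0.59 (SE 0.17, adjusted p 0.0255), and the Cox6a1 value did not pass under quantile normalization (0.20, adjusted p 0.337). Cox6c, a small membrane subunit, had 567 TPM in the light, 1912 in the middle and 528 in the dense zone of gradient 1, and 657, 2295 and 648 TPM in gradient 2. Its ends of the gradient were level, with a log2 change from light to dense of 0.04 (SE 0.22, adjusted p 0.895) that turned to -0.24 under quantile normalization. Cox8a, the ubiquitous isoform of the smallest membrane subunit, had 726, 1265 and 352 TPM from light to dense in gradient 1 and 731, 1298 and 380.1 TPM in gradient 2. It was lowest in the dense zone, with a log2 change of -0.77 (SE 0.16, adjusted p 0.00755) against light.

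The Cox7a genes gave different profiles. Cox7a2, the liver isoform, had light zone means of 160.5 and 190.1 TPM (gradients 1 and 2), middle zone means of 709 and 904 and dense zone means of 214 and 257. Its middle values exceeded the others in both gradients, with log2 changes of 2.35 (SE 0.21, adjusted p 0.00121) and -1.72 (SE 0.21, adjusted p 0.00702) into and out of the middle zone. Cox7a2l, the related protein that joins complexes III and IV into supercomplexes, had 485 TPM in the light, 199.8 in the middle and 85.0 in the dense zone of gradient 1, and 559, 215 and 77.7 TPM in gradient 2. It fell at each step and peaked in fraction 6 of both gradients, at 631 and 760.5 TPM. Its log2 change was -1.30 (SE 0.16, adjusted p 0.0024) from light to middle, -1.33 (SE 0.16, adjusted p 0.00702) from middle to dense and -2.63 (SE 0.16, adjusted p 3.01e-04) from light to dense. Across 17 fractions Pearson's R between Cox7a2 and Cox7a2l was -0.103 in gradient 1 and -0.125 in gradient 2. Cox7a1, the isoform of heart and muscle, was low, at 5.68, 15.7 and 9.87 TPM from light to dense in gradient 1 and 2.22, 22.0 and 5.43 TPM in gradient 2. It still followed Cox7a2, with an R of 0.793 in gradient 1 and 0.935 in gradient 2, and its log2 change into the middle zone was 2.05 (SE 0.43, adjusted p 0.0121), 1.31 in gradient 1 and 2.79 in gradient 2.

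The other isoforms of muscle, lung or testis were near absent. Mean TPM in gradients 1 and 2 was 0.539 and 0.686 for Cox4i2, 1.21 and 0.768 for Cox6b2 and 0.214 and 0.238 for Cox8b. Cox6a2, the muscle partner of Cox6a1, was not in both tables. The corresponding liver or ubiquitous isoforms had 1300.3 and 1425 TPM (Cox4i1), 1216 and 1372 (Cox6b1) and 912 and 921 (Cox8a).

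**Figure D2:**
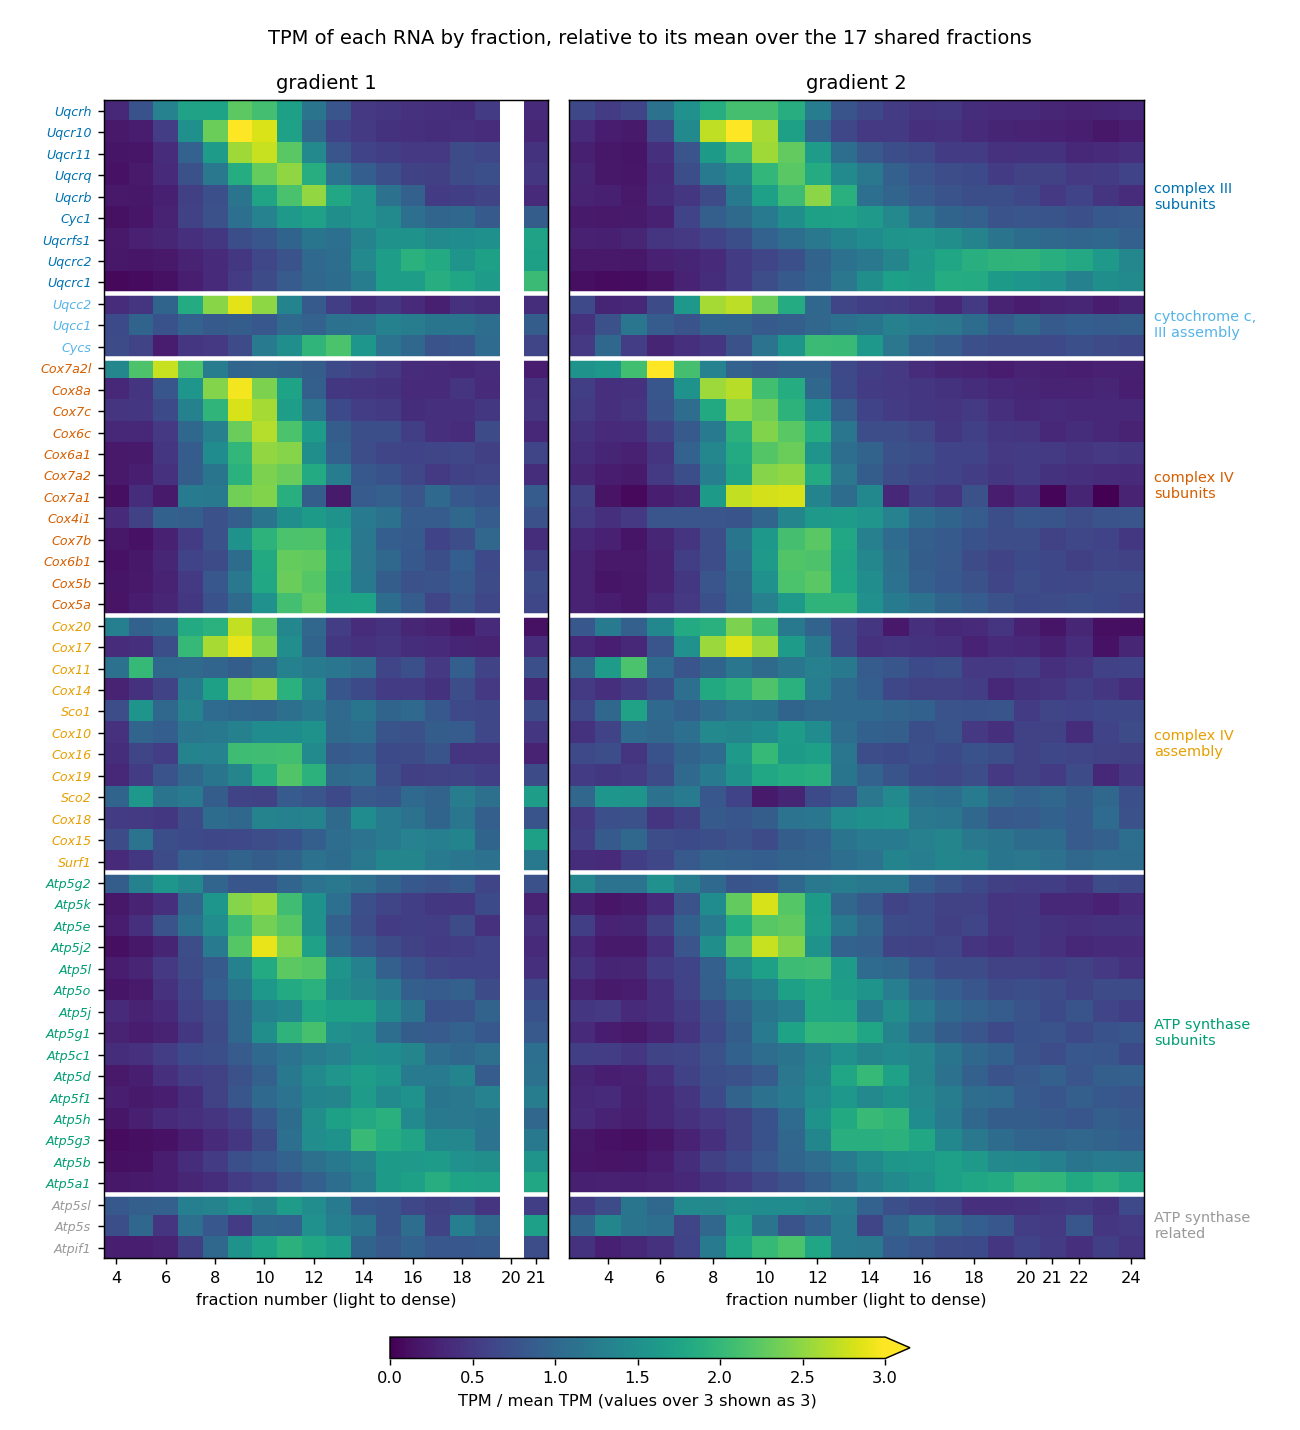
Each line of the map is 1 of the 54 tested RNAs and each column a fraction, from light to dense, with color giving TPM relative to the mean of that RNA over the 17 shared fractions. Fraction 20 of gradient 1 has no library and is white. Most maxima lie in fractions 9 to 15, with Cox7a2l at fraction 6 and Uqcrc1 and Uqcrc2, among others, in denser fractions.

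The assembly factors of complex IV bring copper and heme to the enzyme or insert its subunits. They were less abundant than the subunits, and their profiles were less alike. The values of Sco2, Cox16, Cox20, Cox11 and Cox17 are uncertain through sequence shared with other genes, as given below. Cox17, the small copper chaperone of the intermembrane space, had light zone means of 211 and 176 TPM (gradients 1 and 2), middle zone means of 322 and 367 and dense zone means of 81.9 and 91.4. This was a middle maximum, with log2 changes of 0.99 (SE 0.18, adjusted p 0.00755) and -1.79 (SE 0.18, adjusted p 0.007) into and out of the middle zone. The first was 0.73 in gradient 1 alone and 1.25 in gradient 2 alone. Sco1, which receives copper from Cox17, had 15.1, 14.2 and 10.4 TPM from light to dense in gradient 1 and 13.8, 12.4 and 9.58 TPM in gradient 2. It peaked in fraction 5 of both gradients, and none of its 3 changes passed with zones of 4 fractions and no block. The log2 change from light to dense was -0.46 (SE 0.19, adjusted p 0.0759), with an adjusted p of 0.00893 under the replicate block. With zones of 2 fractions it was -0.73 and passed (adjusted p 0.0275).

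Heme a is made in 2 steps, by Cox10 and then Cox15. Cox10 had 13.5 TPM in the light, 21.3 in the middle and 12.2 in the dense zone of gradient 1, and 12.3, 18.5 and 7.87 TPM in gradient 2. Its middle zone was highest, and the fall to the dense zone passed (log2 change -0.96, SE 0.25, adjusted p 0.0408), though not under quantile normalization (-0.58, adjusted p 0.0865) or with zones of 2 fractions (-0.97, adjusted p 0.0514). Cox15 had light zone means of 18.1 and 18.3 TPM (gradients 1 and 2), middle zone means of 19.3 and 20.7 and dense zone means of 27.7 and 28.2. It leaned to the dense end, with a log2 change of 0.61 (SE 0.16, adjusted p 0.0199) against light. Its centers were 13.2 and 12.9, and those of Cox10 were 11.6 and 11.1. Surf1 acts with heme a in early assembly and had 42.1, 68.6 and 83.4 TPM from light to dense in gradient 1 and 42.3, 69.6 and 91.7 TPM in gradient 2. It was lowest in the light zone of both gradients, and its log2 change from light to dense was 1.10 (SE 0.15, adjusted p 0.00165).

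Cox20 stabilizes the mitochondrially coded subunit II, and its RNA had 107 TPM in the light, 109 in the middle and 24.3 in the dense zone of gradient 1, and 175, 159 and 50.8 TPM in gradient 2. It was lowest in the dense zone, with a log2 change of -1.74 (SE 0.44, adjusted p 0.0339) against middle, which did not pass under quantile normalization (-1.46, adjusted p 0.089), and -1.91 (SE 0.44, adjusted p 0.0112) against light. The Cox20 value is uncertain, since 78.5% of the 31-base words in its annotated transcripts also occur in other genes, mostly Hnrnpu. Pearson's R between Cox20 and Hnrnpu across 17 fractions was -0.772 in gradient 1 and -0.801 in gradient 2. Sco2, a copper protein related to Sco1, is more uncertain still: all of its words occur in Tymp or Ncaph2, whose genes overlap it. It had 165, 96.4 and 145 TPM from light to dense in gradient 1 and 78.5, 28.5 and 64.3 TPM in gradient 2. The gradients differed in level, R between them was 0.545, and no change passed without the replicate block. In the paired fit its log2 change from light to middle was -1.18 with an adjusted p of 0.00594.

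ATP synthase joins a catalytic F1 head in the matrix to a membrane part that holds a ring of subunit c. The RNAs of the alpha and beta subunits lay toward the dense end. Atp5b codes for the beta subunit, which holds the catalytic sites, and was the most abundant RNA of the set. It had 596 TPM in the light, 2762 in the middle and 4218 in the dense zone of gradient 1, and 596, 2551 and 3941 TPM in gradient 2. Both dense zone means were above the light and middle ones, and the log2 change was 2.90 (SE 0.17, adjusted p 3.01e-04) from light to dense and 0.63 (SE 0.17, adjusted p 0.0438) from middle to dense. The latter did not pass under quantile normalization (0.37, adjusted p 0.274) or with no filter on TPM (adjusted p 0.0539). Atp5a1 codes for the alpha subunit and had light zone means of 351 and 409 TPM (gradients 1 and 2), middle zone means of 1222 and 1186 and dense zone means of 2528 and 2405. It rose at each step, with log2 changes of 1.65 (SE 0.17, adjusted p 0.00164) and 1.06 (SE 0.17, adjusted p 0.0102). The centers of Atp5a1 were 15.1 and 15.0, and those of Atp5b were 14.6 and 14.5.

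Other parts of the enzyme had lighter RNAs. Atp5c1, coding for the gamma subunit that turns inside the head, had 358, 834 and 793 TPM from light to dense in gradient 1 and 401, 905 and 794 TPM in gradient 2. It rose from light to middle by 1.21 (SE 0.16, adjusted p 0.00293) and was not called changed from middle to dense (-0.13, SE 0.16, adjusted p 0.598). Atp5o codes for the protein at the top of the peripheral stalk that confers oligomycin sensitivity, and had light zone means of 293 and 315 TPM (gradients 1 and 2), middle zone means of 1386 and 1401 and dense zone means of 687 and 729.8. Its middle zone was highest in both gradients, with log2 changes of 2.35 (SE 0.16, adjusted p 0.0011) and -0.98 (SE 0.16, adjusted p 0.00983). Atp5e, the small epsilon subunit, had 620.5 TPM in the light, 1729 in the middle and 543 in the dense zone of gradient 1, and 555, 1950.3 and 618 TPM in gradient 2. Light and dense levels lay close together, with a log2 change of 0.17 (SE 0.18, adjusted p 0.427) that was -0.12 under quantile normalization, while the middle zone was above the light one by 1.78 (SE 0.18, adjusted p 0.00149).

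Subunit c forms the turning ring and is coded by Atp5g1, Atp5g2 and Atp5g3, whose proteins lose different leader peptides on import. The 3 RNAs sedimented apart. Atp5g1 had light zone means of 202 and 181 TPM (gradients 1 and 2), middle zone means of 1091 and 1043 and dense zone means of 542 and 515. Atp5g2 had 550.5, 435 and 324 TPM from light to dense in gradient 1 and 561, 475 and 319.8 TPM in gradient 2. Atp5g3 had 212 TPM in the light, 1697 in the middle and 2012 in the dense zone of gradient 1, and 228, 1546 and 1675 TPM in gradient 2. Atp5g1 was highest in the middle zone, Atp5g2 in the light zone and Atp5g3 in the dense zone, in both gradients. For Atp5g3, dense and middle did not differ by the test (log2 change 0.23, SE 0.18, adjusted p 0.4). From light to dense the log2 change was 1.51 (SE 0.16, adjusted p 7.51e-04) for Atp5g1, -0.78 (SE 0.15, adjusted p 0.00583) for Atp5g2 and 3.12 (SE 0.18, adjusted p 3.01e-04) for Atp5g3. From light to middle, Atp5g2 changed by -0.29 (SE 0.15, adjusted p 0.161), or by -0.66 with an adjusted p of 0.0135 under quantile normalization. The centers were 12.9 and 13.0 for Atp5g1, 11.3 and 11.2 for Atp5g2 and 14.6 and 14.3 for Atp5g3.

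The source of subunit c RNA therefore changed along the gradient. Atp5g2 gave 57.1% and 57.8% of the summed TPM of the 3 genes in the light zones of gradients 1 and 2. In the middle zone it gave 13.5% and 15.5%, and in the dense zone 11.3% and 12.7%. Atp5g3 went the other way, from 21.9% and 23.5% in the light zone to 52.6% and 50.5% in the middle and 69.9% and 66.7% in the dense zone. Atp5g1 took 21.0% and 18.7%, 33.9% and 34.0%, then 18.8% and 20.5%. The summed level was 964 and 970.4 TPM in the light, 3223 and 3064 in the middle and 2878 and 2509.9 in the dense zone. Across 17 fractions Pearson's R was 0.610 in gradient 1 and 0.771 in gradient 2 between Atp5g1 and Atp5g3, and -0.345 in gradient 1 and -0.109 in gradient 2 between Atp5g2 and Atp5g3. The Atp5g2 values are uncertain, since 87.7% of the 31-base words in its transcripts also occur in another gene, Gm10175.

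**Figure D3:**
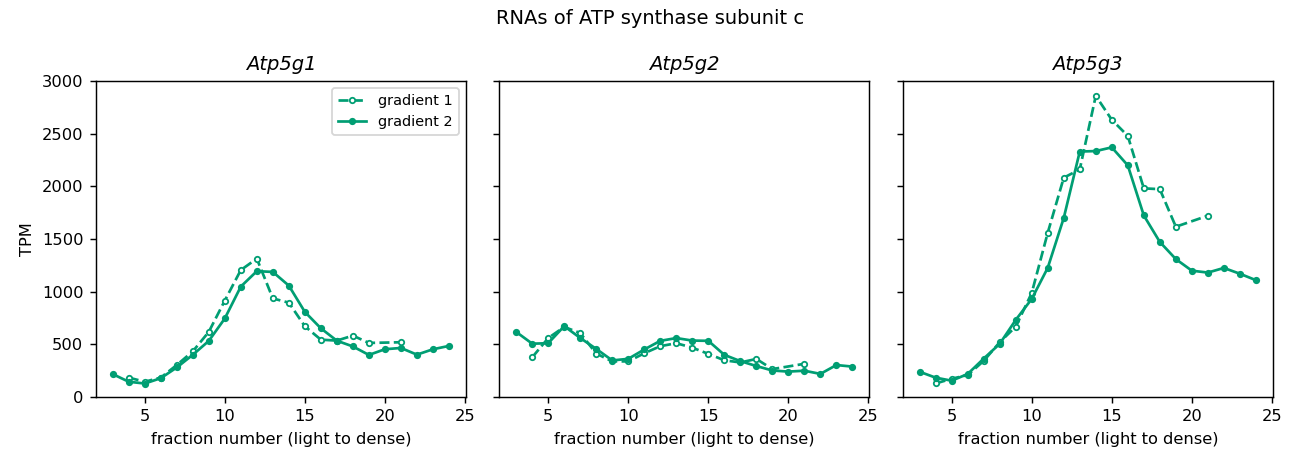
TPM (vertical axis) against fraction number (horizontal axis) for the 3 subunit c genes, 1 point per library, with dashed lines and open points for gradient 1 and solid ones for gradient 2. Atp5g2 is highest in fraction 6, Atp5g1 in fraction 12 and Atp5g3 in fractions 14 and 15.

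The following sequences show how far the 3 RNAs differ where their proteins do not. They are the last 234 bases of each coding region before the stop codon, 78 codons that translate to the same residues in all 3 genes, from GENCODE M21 transcripts on GRCm38. Each is written 5′ to 3′ on the coding strand, and capitals mark bases that differ from Atp5g1. The genes lie at chr11:96068852-96075670 (Atp5g1), chr15:102662864-102672352 (Atp5g2) and chr2:73908447-73911326 (Atp5g3), all on the minus strand.
Atp5g1: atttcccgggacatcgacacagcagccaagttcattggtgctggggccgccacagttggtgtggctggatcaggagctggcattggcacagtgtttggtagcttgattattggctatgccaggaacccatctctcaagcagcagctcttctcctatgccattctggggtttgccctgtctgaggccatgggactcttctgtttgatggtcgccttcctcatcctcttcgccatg
Atp5g2: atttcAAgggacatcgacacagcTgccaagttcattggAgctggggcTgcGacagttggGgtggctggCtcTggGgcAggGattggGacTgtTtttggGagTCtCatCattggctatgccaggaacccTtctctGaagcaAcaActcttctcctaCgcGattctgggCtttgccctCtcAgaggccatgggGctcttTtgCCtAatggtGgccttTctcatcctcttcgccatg
Atp5g3: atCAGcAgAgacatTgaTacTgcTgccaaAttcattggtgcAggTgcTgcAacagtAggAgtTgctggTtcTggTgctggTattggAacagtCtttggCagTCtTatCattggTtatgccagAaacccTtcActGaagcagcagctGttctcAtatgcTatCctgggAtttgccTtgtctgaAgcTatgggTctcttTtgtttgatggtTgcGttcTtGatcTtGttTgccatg
Atp5g2 differs from Atp5g1 at 36 of the 234 bases (84.6% identity) and Atp5g3 differs from it at 50 (78.6%). Atp5g2 and Atp5g3 differ from each other at 53. The longest run that any pair shares is 20 bases, so no 31-base word of this region is common to the genes. Before this stretch lie 58 codons in Atp5g1, 68 in Atp5g2 and 63 in Atp5g3.

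Atpif1 codes for the inhibitor that binds the F1 head when the proton gradient falls, and had 11.0, 57.2 and 27.3 TPM from light to dense in gradient 1 and 14.1, 62.1 and 22.7 TPM in gradient 2. Its middle zone was highest in both gradients, with log2 changes of 2.22 (SE 0.21, adjusted p 0.00132) and -1.22 (SE 0.21, adjusted p 0.0114). From light to dense it changed by 1.00 (SE 0.21, adjusted p 0.00768), 1.32 in gradient 1 and 0.69 in gradient 2. Atp5sl, named for its likeness to a subunit s gene and required for complex I assembly, had light zone means of 60.1 and 49.2 TPM (gradients 1 and 2), middle zone means of 87.0 and 63.6 and dense zone means of 34.9 and 23.5. It was lowest in the dense zone, by a log2 change of -1.36 (SE 0.27, adjusted p 0.0176) against middle and -0.88 (SE 0.27, adjusted p 0.0317) against light. The change against light missed the threshold with zones of 2 fractions (-0.85, adjusted p 0.0502).

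Position along the gradient went with coding length, which was not used to choose the RNAs. Across the 54 RNAs Pearson's r between log2 coding length and center was 0.620 in gradient 1 and 0.559 in gradient 2. Genes are not independent replicates, and no p is given. Among the 36 tested subunits of the 3 complexes r was 0.795 in gradient 1 and 0.765 in gradient 2, and Spearman's rho was 0.814 in gradient 1 and 0.783 in gradient 2. Across 10996 tested genes with an annotated coding region r was 0.128 in gradient 1 and 0.125 in gradient 2, and across 37 complex I subunits it was 0.579 in gradient 1 and 0.568 in gradient 2. With the length of the whole transcript in place of the coding region, r was 0.627 in gradient 1 and 0.619 in gradient 2 for the 36 subunits and 0.463 and 0.402 for the 54 RNAs. For all tested genes the sign then turned, to -0.114 and -0.142. Of the 54 RNAs, 17 had coding regions of up to 300 nt and a median center of 11.3, against 10.3 for other genes of that size. Complex I subunits of that size had 11.2 (n = 6) and mitochondrial ribosomal proteins 10.9 (n = 3). Between 600 and 1200 nt the 12 RNAs had 12.8, against 11.3 for other genes, 13.9 for complex I and 12.9 for mitochondrial ribosomal proteins. The 6 RNAs between 1200 and 2400 nt had a median center of 14.8, against 11.5 for other genes, 14.4 for complex I and 14.1 for mitochondrial ribosomal proteins. Cox10, with 1329 nt, had the lowest center of these 6 (11.3), close to the median of other genes of that size. The 19 RNAs between 300 and 600 nt had a median center of 12.5, against 11.0 for other genes, 12.4 for complex I and 12.0 for mitochondrial ribosomal proteins. Among the 19, Cox7a2l (402 nt) was the lightest at 8.90, and Atp5g3 (423 nt) was at 14.4. These RNAs were picked out after their values were seen.

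**Figure D4:**
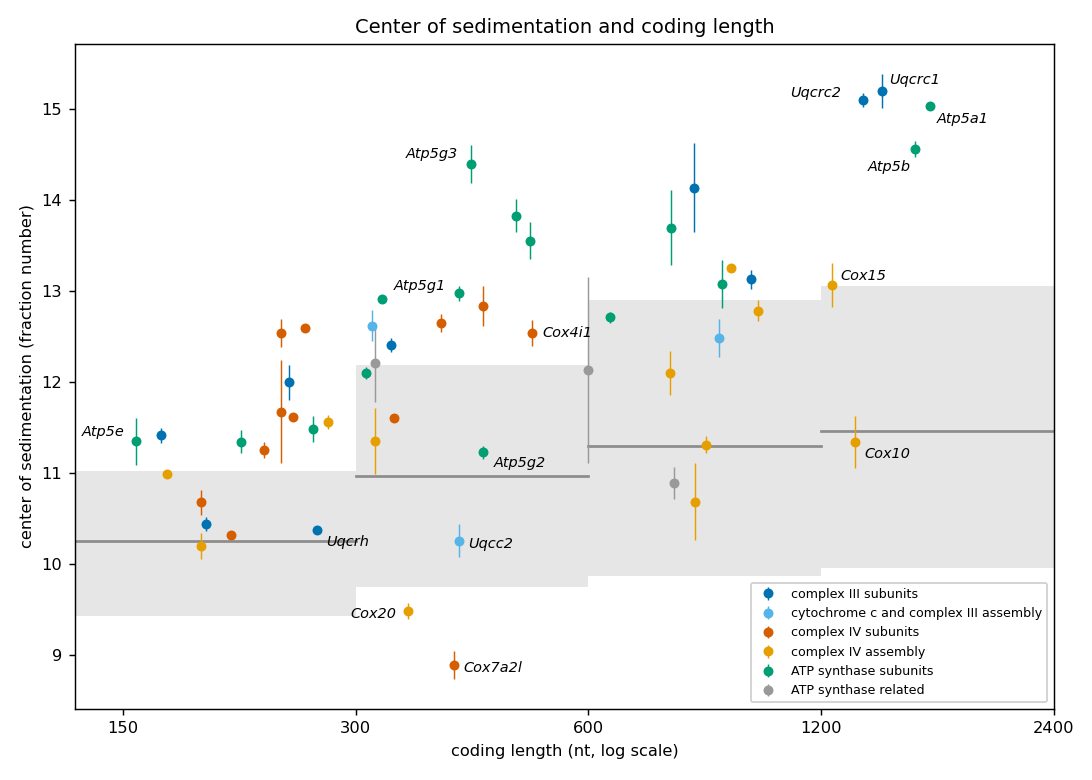
Center of sedimentation (vertical axis, fraction number, mean ± SD of 2 gradients) against coding length in nt (horizontal log axis) for the 54 tested RNAs, with the median and quartiles of all other tested genes in each length range as gray lines and bands. Short subunits lie near fraction 11, and Uqcrc1, Uqcrc2, Atp5a1 and Atp5b near 15.

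Profiles were compared by Pearson's R between genes across the 17 shared fractions, which come from one gradient and are not independent samples. The median R between pairs of complex IV subunits was 0.739 in gradient 1 and 0.739 in gradient 2. Between ATP synthase subunits it was 0.575 in gradient 1 and 0.579 in gradient 2, and between complex III subunits 0.365 in gradient 1 and 0.391 in gradient 2. The complex IV assembly factors had a median R of 0.184 in gradient 1 and 0.110 in gradient 2, near the 0.0665 in gradient 1 and 0.0850 in gradient 2 of all tested genes. Subunits of different complexes were at least as alike as those within complex III. The median R was 0.422 in gradient 1 and 0.538 in gradient 2 for complex III with IV, 0.468 in gradient 1 and 0.519 in gradient 2 for III with ATP synthase and 0.457 in gradient 1 and 0.526 in gradient 2 for IV with ATP synthase. The assembly factors of complex IV were less like its subunits, with a median R of 0.336 in gradient 1 and 0.299 in gradient 2. On the log2 scale the mean of the 2 medians was higher for ATP synthase (0.776 against 0.577) and for complex III (0.604 against 0.378). Between complexes this scale, added after the data were seen, gave 0.636 and 0.717 for III with IV and 0.706 and 0.745 for III with ATP synthase, against 0.579 and 0.629 within III.

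The other nuclear genes of mitochondrial energy production served as comparison lists. Their counts stand against the same shares of all tested genes, 23.5% higher and 24.1% lower in middle than in light and 4.79% higher and 22.5% lower in dense than in middle. Of 37 complex I subunits 35 were higher in middle than in light, 23 lower and 3 higher in dense than in middle, with a median center of 12.4 in gradient 1 and 12.5 in gradient 2. The 4 complex II subunits had a median center of 13.6 in gradient 1 and 13.3 in gradient 2, and all 4 were higher in middle than in light. Among 78 mitochondrial ribosomal proteins, 70 rose into the middle zone and 49 fell out of it, with 6 higher in dense than in middle and a median center of 12.5 in gradient 1 and 12.3 in gradient 2. Of the 25 other assembly and accessory factors 14 were higher and 2 lower in middle than in light, and 15 were lower and 1 higher in dense than in middle (median log2 change -1.21, against -0.97 for complex I and -0.28 for all genes). They had a median center of 11.2 in gradient 1 and 11.4 in gradient 2. Complex IV subunits had a median R of 0.626 in gradient 1 and 0.685 in gradient 2 with complex I subunits, against 0.739 in gradient 1 and 0.739 in gradient 2 among themselves.

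Profiles repeated between gradients, with a median R of 0.971 over the 17 shared fractions for the 54 RNAs and 0.899 for all tested genes. Shared sequence limits some of the values. In 11 of the 54 RNAs at least 50% of the 31-base words also occur in other annotated genes, among them Sco2, Atp5g2, Cox20, Atp5o (63.2%) and Cox17 (54.8%), and the values of these genes are uncertain. For Atp5o some of these words lie in a second annotated gene of the same symbol, and 48.0% occur in genes of another symbol. Without the 11, an alternative chosen after the data were seen, 5 of 43 RNAs were lower in dense than in light, in place of 10 of 54 and against 39.6% of all tested genes. In the same 43 the r of center with coding length was 0.645 in gradient 1 and 0.595 in gradient 2.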

How the data were processed

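TPM values are those the authors deposited, computed by them with kallisto against a RefSeq index of mm10 after demultiplexing with bcl2fastq 2.16.0.10. This is per the submitters' processing notes, which state no kallisto version. TPM keeps no counts, so depth and counting error are unknown. The 2 tables share 13230 genes. The tests used log2(TPM + 1), which understates changes of low genes, and genes with a mean of at least 1 TPM over the 24 libraries of the 3 zones.

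Zone means were fitted with limma 3.58.1 (lmFit, then eBayes with a trend) in R 4.3.3, and p-values were adjusted by Benjamini-Hochberg over all 11754 tested genes. Light, middle and dense means of 1 gradient were pairs, as all derive from 1 homogenate. Their deviations correlated at 0.665 (light and middle), 0.540 (light and dense) and 0.798 (middle and dense) across genes, and a fit with the gradient as block was also made. Centers, correlations and sequence measures were computed with Python 3.11.15, NumPy 2.4.6, pandas 2.3.3 and SciPy 1.17.1, and plots with matplotlib 3.10.9. The limma fit was checked on simulated zone means, which were drawn independently of each other, unlike the paired means here.

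The RNAs and the lists were chosen with earlier results of these data known. A rule set 37 of the named RNAs. It took a list by role and, in each group, the RNAs of lowest and highest center and of highest mean TPM. These last were sought among RNAs with a mean of at least 10 TPM in each gradient. Uqcrh, Uqcr11, Uqcc2, Cox20 and Atp5sl were named by such measured values and not by role. Others were named only where a count was at most 5 or where the text says they were picked after their values were seen. Coding lengths and sequences are from GENCODE M21 on GRCm38.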

Additional observations from a re-analysis of the deposited data

How the results depend on the processing

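Each zone has n = 2 means, and leaving 1 out leaves a zone with a single mean that is taken to vary like the others. Fractions are single libraries, so error between libraries of a fraction is unknown. TPM gives shares, so a rise of one RNA lowers others. How the authors summed transcripts to genes is not stated.

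The replicate block gave 2 instead of 1 member lower in middle than in light, as did quantile normalization (2), and 7 instead of 4 higher in dense than in middle. It raised the calls among all genes from 5589 to 8478 for middle against light and from 3208 to 6275 for dense against middle. In the paired fit the added calls with an adjusted p under 0.05 were, in middle against light, Atp5sl, Cox10 and Sco2. In dense against middle they were 7, among them Atp5g2, Cox15, Sco1, Sco2 and Surf1, and in dense against light Atp5k, Sco1 and Uqcc1. The block changed no other call of these RNAs.

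With 1 zone mean left out, the calls among all genes for middle against light ranged from 2913 to 6042, with 2913 and 3240 without a light mean and 2925 without the middle mean of gradient 1. For dense against middle they ranged from 0 to 2447. They fell to 1956 and 1936 without a light mean, to 2078 without the dense mean of gradient 2, and to 0 by limma without either middle mean, where 3374 and 3510 genes had an unadjusted p under 0.05. Of the 54 RNAs, limma then called 0 higher and 0 lower, with 37 and 36 at an unadjusted p under 0.05, and at most 3 higher and 29 lower without any other mean. For dense against light, 20 to 27 instead of 31 were higher and 5 to 9 instead of 10 were lower, with 20 and 5 without the light mean of gradient 1 and 6 lower without that of gradient 2. A mean of at least 10 TPM gave 4798 calls among 7233 genes in place of 7274. Without the members that share at least 50% of their 31-base words, chosen after the data were seen, 5 of 43 were lower in dense than in light.

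The direction turned for small changes: Cox15 (-0.0106) and Cox20 (0.0944) from light to middle with zones of 2 fractions, and Atp5e (-0.12), Cox10 (0.0360) and Cox6c (-0.24) from light to dense under quantile normalization. None of these passed the threshold in either fit. Median centers moved under quantile normalization to 12.2 (complex III), 12.7 (cytochrome c and III assembly), 11.8 (IV assembly) and 12.8 (ATP synthase). Over the 22 fractions of gradient 2 they were 13.3, 13.6, 12.4 and 14.0 for these groups and 12.4 for complex IV. Without the 50 most abundant genes the ATP synthase median was 13.0, and without the members with shared words the medians were 12.6 (III), 11.6 (IV assembly) and 13.2 (ATP synthase). The median pairwise R on the log2 scale was 0.604 (III), 0.738 (IV), 0.213 (IV assembly), 0.776 (ATP synthase) and 0.275 (related genes). Without the 50 most abundant genes it was 0.354, 0.717, 0.0614, 0.566 and 0.131.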

Other observations

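Gradient 2 reaches fraction 24, beyond the densest fraction of gradient 1, so its last libraries have no replicate and were not tested. Between fractions 16 to 19 and 22 to 24 the level of the 54 RNAs changed to a median ratio of 0.760, against 0.915 for all tested genes. The ratio was over 1 for 2 of the 54, Atp5a1 (1.08) and Atp5sl (1.04), and for 4213 of 11754 genes. Complex III subunits had a median ratio of 0.734, complex IV subunits 0.720, complex IV assembly factors 0.801 and ATP synthase subunits 0.737.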
